A study of Homo sapiens with 6 samples.

Results

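The genes described here encode the core proteins of the spliceosomal small nuclear ribonucleoproteins (snRNPs) and the related LSm proteins. They were chosen by symbol alone: names that begin with SNRPA to SNRPG, with SNRNP and a digit, or with LSM and a digit, without hyphenated names and without processed copies, whose symbol is that of a member followed by P and a number. The rule found 30 genes among the 10072 genes of the count table, with 102 of its 21472 transcript models and 32748 of its 6784575 read counts. LSM11, which shares the U7 snRNP with LSM10, had 0 rows in the table.

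Each spliceosomal snRNP is a small nuclear RNA with a set of proteins, and most of them are built around a ring of Sm proteins that is closed around the RNA in the cytoplasm before the particle returns to the nucleus. LSm proteins have the same fold and form 2 rings that share most of their subunits. The ring that contains LSM8 binds the end of the U6 RNA in the nucleus, while the ring that contains LSM1 binds the ends of shortened mRNAs in the cytoplasm and promotes removal of their caps. Other members belong to 1 type of particle, such as SNRPC in the U1 snRNP, which recognises the 5′ splice site, or SNRNP25 and SNRNP35 in the U11/U12 particle, which serves the rare minor introns.

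The RNA came from Calu-6, an established human cell line of lung carcinoma origin. For 48 h the cells carried 10 nM of a non-silencing siRNA (siControl) or of one directed to the junction of exons 1 and 5 of the Delta 2-4 splice variant of TERT, the catalytic subunit of telomerase (siDelta2-4), with 3 libraries in each group. The labels give the genotype of both groups as WT, while the count columns carry the word Empty and the study's methods describe Calu-6 lines that stably express an empty Flag-V5 vector for this experiment. The comparison asks which genes respond to the siRNA, and all libraries come from 1 cell line. Libraries are named by the number in their count column, and p-values measure only the spread between these libraries.

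The siControl libraries held from 1037468 to 1106413 counts and the siDelta2-4 libraries from 1070009 to 1309241 counts. Every model in the table had a count in siDelta2-4, while 4526 models, 12 of them models of the snRNP and LSm genes, had 0 counts in siControl, so a value at or near 0 can be seen in 1 group only. Of the epithelial keratins of Calu-6 cells, KRT8 and KRT18 had 824 and 1124 counts, whereas EPCAM and KRT19 had 13 and 1 and CDH1 had 0 rows. All 6 markers of blood, endothelial and fibroblast cells that were looked up had 0 rows. In the comparison of all genes, siControl 3 stood farthest from the other control libraries, and without it 1041 of 4098 genes were called instead of 504 of 3888, so results that rest on it are given with and without it.

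Long reads show which exons a molecule joins, and the following junctions differ between the isoforms of 3 members. They are shown because the reads assigned to each isoform are compared further on. The bases were read from the Gencode 44 transcripts (GRCh38), 5′ to 3′, with the last bases of the upstream exon in lower case and the first bases of the downstream exon in capitals, and the coordinates are the exon ends on the minus strand. SNRPB makes the B and B′ forms of its Sm protein by a choice of 3′ splice site in the last intron, at chr20:2461939 for SNRPB-201 (231 codons) and at chr20:2461793 for SNRPB-202 (240 codons), both after the exon end at chr20:2462636. SNRPG-203 joins the exon end at chr2:70293618 directly to chr2:70288192 and leaves out the exon that SNRPG-201 (76 codons) includes, and no coding sequence is annotated for it. LSM7-201 (103 codons) and LSM7-203 (35 codons) use the acceptors chr19:2324196 and chr19:2324192 after the exon end at chr19:2328387.
SNRPB-201, last junction: cccctgggatgcgagGCCTTCTTTGACCCT
SNRPB-202, last junction: cccctgggatgcgagGGCCCCCTCCCCCGG
SNRPG-201, first junction: tcccgagttgaaaaaATTTATGGACAAGAA
SNRPG-201, second junction: acaagaagttatcatTGAAATTAAATGGTG
SNRPG-203, first junction: tcccgagttgaaaaaTGAAATTAAATGGTG
LSM7-201, second junction: agggaggccgcgaagCCAGTGGAATCCTGA
LSM7-203, second junction: agggaggccgcgaagTGGAATCCTGAAGGG

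Of the 30 genes, 24 had enough counts to be tested and 1 was called: LSM1, the subunit that defines the cytoplasmic LSm ring, was higher in siDelta2-4 by edgeR's quasi-likelihood test with Benjamini-Hochberg adjustment. In bulk RNA, a gene used by fewer cells and a gene with less RNA in each cell cannot be told apart. Among all 3888 genes tested, 13.0% were called at an adjusted p under 0.1 (272 higher and 232 lower), so 1 called member of 24 lies below the background. The signs leaned the other way from LSM1, with a negative log2 fold change in 21 of the 24 tested members (87.5%) against 46.1% of all tested genes; with library totals as the only scaling it was negative in 17. Errors beside log2 fold changes are standard errors throughout. The median log2 fold change was -0.15 over the tested members and 0.03 over all tested genes, and it was -0.16 over the members without LSM14B, whose counts are of uncertain origin. Unannotated models all had counts in siDelta2-4 but not all in siControl, and they hold more of all counts than of the members' counts. Counted only on models that match an annotated transcript, 20 of 23 tested members were negative, with a median of -0.19 against 0.01 over all genes so tested. CPM (counts relative to the TMM-scaled library total) did not overlap between the groups in 8 of the 24 members, or 33.3%, against 26.0% of all tested genes. LSM2 is among the 8, although it passed the count filter through siDelta2-4, where it was higher. In the same edgeR test 5 members had an unadjusted p under 0.05, or 20.8%, against 23.1% of all tested genes.

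**Figure D1:**
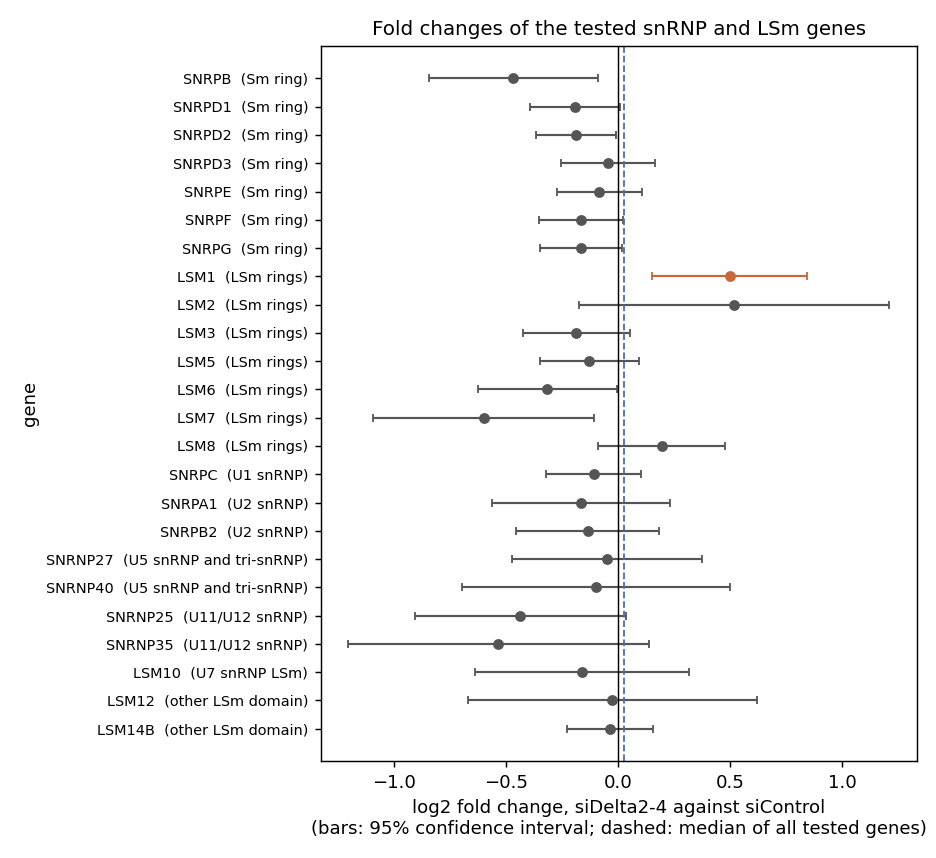
Log2 fold change of siDelta2-4 against siControl on the horizontal axis for the 24 tested genes, ordered by particle, with bars for the 95% confidence interval, a solid line at 0 and a dashed line at the median of all tested genes (0.03). Points lie left of 0 for 21 genes, and LSM1, in orange, is the called gene, with a log2 fold change of 0.50.

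The members took a slightly smaller part of each siDelta2-4 library. Their share of all counts was 0.500%, 0.496% and 0.488% in siControl 1, 2 and 3 and 0.482%, 0.472% and 0.463% in siDelta2-4 1, 2 and 3, without overlap of the groups. The means were 0.495% ± 0.00613 and 0.472% ± 0.00923 (SD, n = 3 each), a difference of -0.0227 percentage points. Counted on known models alone, that is, models that match an annotated transcript, their share of such counts was 0.886%, 0.879% and 0.879% in siControl and 0.833%, 0.823% and 0.809% in siDelta2-4, a difference of -0.0595. Most of the difference over all models came from the Sm ring genes, whose share had a mean of 0.325% ± 0.00835 in siControl against 0.305% ± 0.0121 in siDelta2-4, whereas the LSm ring genes held 0.0794% ± 0.00378 and 0.0784% ± 0.00412. A share carries no scaling between libraries, and no test was run on these sums.

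All 7 genes of the Sm ring had a negative log2 fold change and none was called, with values from -0.47 to -0.04 and a median of -0.17. All 7 were negative in 13 of 14 alternative analyses; with library totals as the only scaling, SNRPD3 was at 0.02. Removing siControl 3 made 4 of the 7 pass the threshold as lower (SNRPB, SNRPD2, SNRPF and SNRPG). In that fit 25.4% of all genes tested were called, counted in either direction.

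**Figure D2:**
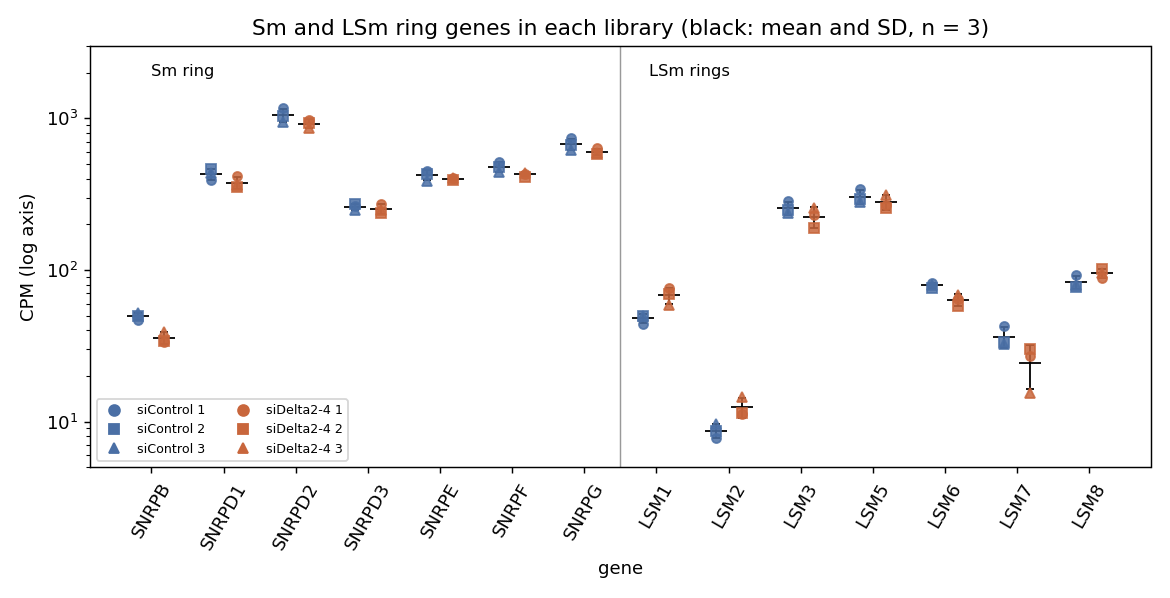
CPM on a log axis for the 7 Sm ring genes and the 7 tested LSm ring genes, with 1 symbol per library, siControl in blue and siDelta2-4 in orange, and black marks for the mean and SD of 3 libraries. The siControl points of SNRPB, SNRPF, LSM6 and LSM7 all lie above the siDelta2-4 points, and those of LSM1 and LSM2 all lie below them.

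SNRPB (chr20:2461634-2470853), whose B protein pairs with D3 in the ring, had 46.8, 49.9 and 51.7 CPM in siControl 1, 2 and 3 and 33.7, 34.1 and 39.1 in siDelta2-4 1, 2 and 3. Every siControl value was above every siDelta2-4 value. The means were 49.5 ± 2.49 and 35.7 ± 3.02 CPM (SD, n = 3 each), and the log2 fold change of -0.47 ± 0.18 missed the threshold (edgeR, adjusted p = 0.115), with a fold of 0.724 (95% confidence interval 0.557 to 0.939). It passed under 4 of the 13 alternatives that gave an adjusted p, which ranged from 0.0449 to 0.282, and DESeq2 gave none for this gene. The 4 were DESeq2 size factors, known models only, the length trend removed and the fit without siControl 3.

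SNRPD2 (chr19:45687460-45692569), which forms a dimer with D1, was the member with most counts, 6564 over the 6 libraries. Its siControl CPM were 1161, 1039 and 945, and its siDelta2-4 CPM were 981, 925 and 857. siControl 3 lay inside the siDelta2-4 range and the other control libraries lay above it. The log2 fold change was -0.19 ± 0.09 (edgeR, adjusted p = 0.190), and without siControl 3 it was -0.28 (adjusted p = 0.00596 in the same test). It also passed on known models only (edgeR, adjusted p = 0.0804) and in the DESeq2 Wald test (adjusted p = 0.0988).

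SNRPD1 (chr18:21612314-21633524), the partner of D2, had 389, 463 and 433 CPM in siControl and 416, 350 and 361 in siDelta2-4. The groups overlapped, since siControl 1 was below siDelta2-4 1. Its log2 fold change was -0.19 ± 0.10 (edgeR, adjusted p = 0.240). After the per-library trend on transcript length was removed it was -0.37 and passed (edgeR, adjusted p = 0.0210).

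SNRPF (chr12:95858952-95903828) and SNRPG (chr2:70281362-70293740), neighbours of E in the ring, shared with SNRPD2 a lowest control value in siControl 3. SNRPF had 513, 480 and 444 CPM in siControl and 432, 412 and 438 in siDelta2-4, without overlap, and a log2 fold change of -0.17 ± 0.09 (edgeR, adjusted p = 0.279). SNRPG had 740, 663 and 622 CPM in siControl and 635, 580 and 592 in siDelta2-4, with siControl 3 inside the siDelta2-4 range, and a log2 fold change of -0.16 ± 0.09 (edgeR, adjusted p = 0.271). Without siControl 3 the log2 fold changes were -0.24 and -0.24 (edgeR, adjusted p = 0.0448 and 0.0286).

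SNRPE (chr1:203861599-203871152) and SNRPD3 (chr22:24555958-24582052) lay nearest to 0 among the Sm genes. SNRPE had 452, 431 and 388 CPM in siControl and 406, 391 and 404 in siDelta2-4 (log2 fold change -0.08 ± 0.09, edgeR, adjusted p = 0.637), with siControl 3 below all siDelta2-4 libraries. SNRPD3, the partner of B, had 262, 270 and 248 CPM in siControl and 271, 237 and 249 in siDelta2-4 (log2 fold change -0.04 ± 0.10, edgeR, adjusted p = 0.844). The fold of SNRPD3 had a 95% confidence interval of 0.839 to 1.12, so a shift within that interval is not excluded.

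The LSm ring genes divided by sign, with LSM1, LSM2 and LSM8 positive and LSM3, LSM5, LSM6 and LSM7 negative. The 3 positive genes were positive in every one of the 14 alternatives in which they were tested, and the 4 negative genes negative in all 14. LSM2 passed the count filter through siDelta2-4, where it was higher, so its sign is no support for this division. LSM4, the remaining subunit, had 53 counts in all (8, 3 and 9 in siControl and 10, 12 and 11 in siDelta2-4) and was not tested.

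LSM1 (chr8:38163335-38176730) had 43.9, 49.9 and 49.8 CPM in siControl 1, 2 and 3 and 75.8, 69.1 and 59.1 in siDelta2-4 1, 2 and 3, from 392 counts over the 6 libraries. Every siDelta2-4 library was above every siControl library. The means were 47.8 ± 3.44 and 68.0 ± 8.43 CPM (SD, n = 3 each), and the log2 fold change was 0.50 ± 0.17 (edgeR, adjusted p = 0.0663), a fold of 1.41 with a 95% confidence interval of 1.11 to 1.80. The call stood in 7 of 14 alternatives, with log2 fold changes from 0.41 to 0.59 when 1 library was left out. It was lost in the DESeq2 Wald test (adjusted p = 0.212), with no filter on low counts (edgeR, adjusted p = 0.151), with a block on the column number, and without siControl 1, siControl 2, siDelta2-4 1 or siDelta2-4 2 (edgeR, adjusted p = 0.234, 0.144, 0.211 and 0.179).

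All LSM1 counts fell on known models. LSM1-201 held 299 of them (log2 fold change 0.50 ± 0.20, edgeR, adjusted p = 0.158), LSM1-203 held 71 (0.69 ± 0.38, edgeR, adjusted p = 0.345) and LSM1-202 held 22, so no single model was called. The gene shares 438 exonic bases with ENSG00000253356, a long non-coding RNA on the opposite strand, whose most counted model had 4 exons and 930 bases against 4 exons and 906 bases of LSM1-201. ENSG00000253356 had 36.1, 46.0 and 48.8 CPM in siControl and 48.7, 59.3 and 52.2 in siDelta2-4 (log2 fold change 0.29 ± 0.18, edgeR, adjusted p = 0.348). The counting was not stated to use strand. Whether reads of either gene were counted under the other was not tested, which leaves the LSM1 level uncertain.

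LSM2 (chr6:31797396-31806966), a subunit of both rings, had 7.8, 8.6 and 9.6 CPM in siControl and 11.2, 11.4 and 14.6 in siDelta2-4, without overlap. It passed the count filter through its siDelta2-4 libraries, since siControl 1 and 2 were under it. LSM2 also fell out of the fit with at least 10 counts in every library. The lack of overlap and the sign of LSM2 are therefore not read as a result. With 72 counts in all the log2 fold change of 0.52 ± 0.34 did not pass (edgeR, adjusted p = 0.371), and the 95% confidence interval of the fold ran from 0.887 to 2.32. LSM8 (chr7:118184144-118204035), the subunit that defines the nuclear ring, had 92.6, 77.7 and 79.5 CPM in siControl and 88.0, 101.6 and 95.9 in siDelta2-4. siControl 1 lay among the siDelta2-4 values, and the log2 fold change was 0.20 ± 0.14 (edgeR, adjusted p = 0.418).

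LSM7 (chr19:2321520-2328611), a subunit of both rings, had 42.9, 33.6 and 32.6 CPM in siControl and 27.2, 30.1 and 15.3 in siDelta2-4. The groups did not overlap, but siDelta2-4 3 stood well below the other siDelta2-4 libraries. The log2 fold change was -0.60 ± 0.24 (edgeR, adjusted p = 0.126), from 199 counts, and ranged from -0.80 to -0.34 as each library was left out. It passed without siControl 3, at -0.70 (edgeR, adjusted p = 0.0333), with DESeq2 size factors (edgeR, adjusted p = 0.0953) and on known models only (edgeR, adjusted p = 0.0957).

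LSM6 (chr4:146175703-146200000), found next to LSM5 in both rings, had 81.9, 75.8 and 79.5 CPM in siControl and 64.6, 57.7 and 68.3 in siDelta2-4. These groups did not overlap either, and the log2 fold change was -0.31 ± 0.15 (edgeR, adjusted p = 0.204). It passed only after the per-library trend on transcript length was removed, at -0.48 (edgeR, adjusted p = 0.0483).

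LSM3 (chr3:14178817-14201122) had 284, 248 and 237 CPM in siControl and 229, 188 and 258 in siDelta2-4, and LSM5 (chr7:32485338-32495283) had 341, 292 and 280 and then 267, 254 and 314. Both overlapped, with siDelta2-4 3 the highest library of its group in each. Their log2 fold changes were -0.19 ± 0.12 and -0.13 ± 0.11 (edgeR, adjusted p = 0.348 and 0.514). LSM3 passed without siControl 3, at -0.26 (edgeR, adjusted p = 0.0825), and with the length trend removed, at -0.37 (edgeR, adjusted p = 0.0850).

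The 5 tested proteins particular to U1, U2, U5 and the tri-snRNP had log2 fold changes between -0.16 and -0.05 and none was called. SNRPC (U1) had CPM from 221 to 252 in siControl and from 221 to 229 in siDelta2-4. In the U2 snRNP, SNRPA1 and SNRPB2, which bind U2 RNA together, had log2 fold changes of -0.16 ± 0.19 and -0.14 ± 0.16 (edgeR, adjusted p = 0.657 and 0.649). SNRNP40, a WD-repeat protein of the U5 particle, and SNRNP27, of the tri-snRNP, were at -0.10 ± 0.29 and -0.05 ± 0.21 (edgeR, adjusted p = 0.878 and 0.921). The groups overlapped in all 5.

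The 2 tested proteins of the U11/U12 particle had larger differences, on 182 counts for SNRNP25 and 79 for SNRNP35. SNRNP25 (chr16:53828-57669) had 35.1, 29.7 and 29.7 CPM in siControl and 20.6, 20.3 and 28.4 in siDelta2-4, without overlap, and a log2 fold change of -0.43 ± 0.23 (edgeR, adjusted p = 0.259). SNRNP35 (chr12:123458088-123473154), a relative of the U1 70K protein, had 16.6, 12.5 and 13.4 CPM in siControl and 12.2, 9.8 and 7.7 in siDelta2-4, without overlap and with a log2 fold change of -0.53 ± 0.33 (edgeR, adjusted p = 0.339). Neither passed under any of the 13 alternatives that gave it an adjusted p (DESeq2 gave none), where the values ranged from 0.142 to 0.533 for SNRNP25 and from 0.198 to 0.659 for SNRNP35.

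LSM10 of the U7 snRNP, which processes histone mRNA, and LSM12 had log2 fold changes of -0.16 ± 0.23 and -0.02 ± 0.31 (edgeR, adjusted p = 0.736 and 0.979) with overlapping groups. The 6 members below the filter were LSM4, SNRPA with 35 counts, SNRNP48 with 7, LSM14A with 4, and SNRNP70 and SNRNP200 with 2 each. SNRNP70, the 70K protein of U1, had 0 counts in all siControl libraries and 0, 1 and 1 in siDelta2-4, and SNRNP200, the helicase that unwinds U4 from U6, had 1, 0 and 0 and then 1, 0 and 0. The levels of SNRNP48, LSM14A, SNRNP70 and SNRNP200 are at or under 3 counts per library, and no fold is given for any of the 6.

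The members were well described by the annotation, except for a few genes. Known models held 79.7% of their counts and 45.3% of all counts in the table. In the members, models that cover only part of an annotated splice chain (ISM) held 11.7%, models that combine known splice sites in a new way (NIC) 8.04% and models with a new splice site (NNC) 0.620%. With a minimum of 20 counts, 40 known, 9 ISM, 14 NIC and 3 NNC models remained. The part on known models was steady between the groups, at 80.1%, 79.5% and 80.3% in siControl and 80.2%, 79.3% and 78.8% in siDelta2-4.

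**Figure D3:**
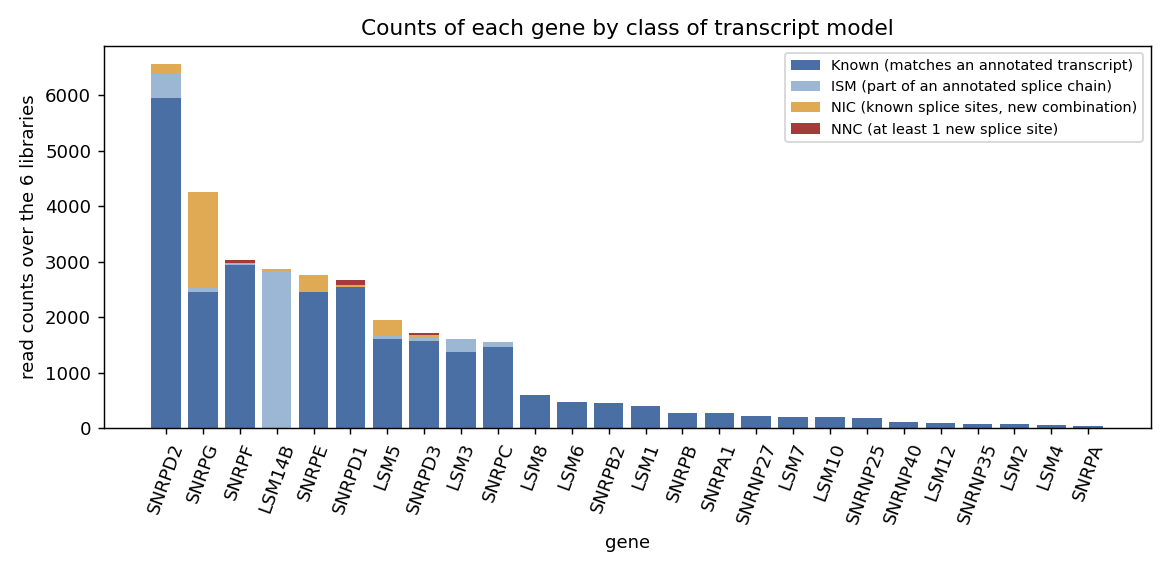
Read counts over the 6 libraries for the 26 members with at least 20 counts, stacked by class of transcript model. Known models make up most of each bar, except for LSM14B, where they are at 0, and SNRPG, where NIC models hold a large part.

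SNRPG had the most models, 11, and 57.5% of its 4263 counts lay on known ones. The largest unannotated model, with 3 exons and 569 bases, held 1071 counts, or 25.1% of the gene, next to 2226 counts of SNRPG-201. The unannotated part of SNRPG was 42.0%, 41.5% and 42.2% in siControl and 43.2%, 40.8% and 44.8% in siDelta2-4, with overlapping groups. SNRPG also has processed copies in the genome, 3 of which had counts of their own, SNRPGP10 with 440, SNRPGP2 with 355 and SNRPGP15 with 235. None of these copies was called, nor was SNRPEP4 with 94, and since copies share sequence with their source gene the split of reads between them is uncertain.

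In the fit of single models, 47 member models were tested and 1 was called, or 2.13%, against 6.91% of all 6768 models tested and 2.97% called as lower. The called model, TALONT000286210, is a model of SNRPD1 with 324 bases, 4 exons and a splice site outside the annotation. It had 18.3, 25.1 and 20.6 CPM in siControl and 12.4, 9.3 and 11.7 in siDelta2-4, without overlap, from 105 counts, and a log2 fold change of -0.93 ± 0.29 (edgeR, adjusted p = 0.0671). It made up 4.76%, 5.38% and 4.65% of SNRPD1 counts in siControl and 2.93%, 2.55% and 3.18% in siDelta2-4. With 1 library left out the call stood only without siControl 3, and the adjusted p rose to at most 0.280 (edgeR), although the log2 fold change stayed between -1.04 and -0.81. Of the 47 models, 35 had a negative and 12 a positive log2 fold change, and 4 reached an unadjusted p under 0.05 in the edgeR test.

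Proportions of models within a gene could be tested in 12 members and 0 were called (diffSpliceDGE in edgeR), against 7 of 1132 genes in all, or 0.618%. At an unadjusted p under 0.05 there was 1 member, SNRPD1 (edgeR, adjusted p = 0.281), and SNRPG came next (edgeR, adjusted p = 0.522).

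**Figure D4:**
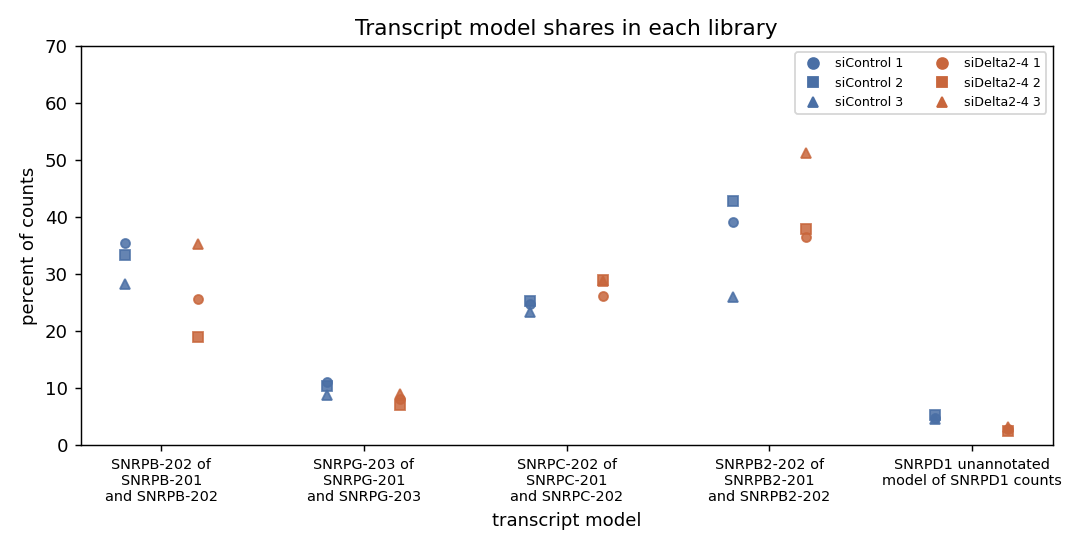
Percent of counts held by 1 model among the models named under each column, with 1 symbol per library, siControl in blue and siDelta2-4 in orange. The groups overlap for SNRPB, SNRPG and SNRPB2, and lie apart for SNRPC-202 (23.3% to 25.3% against 26.1% to 29.0%) and for the SNRPD1 model outside the annotation.

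The isoforms whose junctions are printed above were compared by their shares. SNRPB-202, which encodes B′, made up 35.4%, 33.3% and 28.3% of the counts on SNRPB-201 and SNRPB-202 in siControl and 25.7%, 19.0% and 35.3% in siDelta2-4. Libraries siDelta2-4 1 and 2 lay below the controls and siDelta2-4 3 lay inside their range, and the usage test gave an adjusted p of 0.871 (edgeR). SNRPG-203, the form without the second exon, made up 11.1%, 10.4% and 8.80% of counts on SNRPG-201 and SNRPG-203 in siControl and 8.05%, 7.11% and 8.96% in siDelta2-4, with siControl 3 inside the siDelta2-4 range. As a model of its own it had a log2 fold change of -0.50 ± 0.21 (edgeR, adjusted p = 0.192). LSM7-203 held 28.5% ± 9.18 of the counts of the 3 LSM7 models in siControl and 26.9% ± 7.42 of them in siDelta2-4 (SD, n = 3 libraries), with overlapping groups.

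SNRPC and SNRPB2 each had a pair of well counted known models. SNRPC-202 (180 codons) made up 24.8%, 25.3% and 23.3% of the counts on it and SNRPC-201 (159 codons) in siControl and 26.1%, 29.0% and 28.8% in siDelta2-4, without overlap, while the usage test of SNRPC gave an adjusted p of 0.864 (edgeR). SNRPB2-202, which differs from SNRPB2-201 in its first exon, held 39.1%, 42.9% and 25.9% in siControl and 36.5%, 37.9% and 51.2% in siDelta2-4, with overlap.

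A few members lie next to a counted gene on the opposite strand. LSM14B (chr20:62122461-62135374), a protein of mRNA granules, had 2874 counts, and 0 of them lay on an annotated LSM14B transcript. Its largest model had 7 exons, 965 bases and 2786 counts. PSMA7, a proteasome subunit whose gene ends 1359 bases away on the other strand, had its largest model, PSMA7-203, at 7 exons, 962 bases and 2948 counts. In siControl, LSM14B had 421, 472 and 406 CPM and PSMA7 had 441, 473 and 444; in siDelta2-4 the values were 402, 431 and 435 for LSM14B and 470, 491 and 450 for PSMA7. The annotated genes share 0 exonic bases, and whether reads of PSMA7 were counted under LSM14B was not tested. The values under LSM14B are therefore not read here as its expression.

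LSM3 and SNRPG also had a counted neighbour. The lengths given for LSM3-201, which held 1376 counts, and SNRPG-201 are those of the annotation, so they do not show how long the reads were. XPC, a DNA repair gene 196 bases from LSM3, had 1382 counts on a single ISM model of 4 exons and 785 bases, against 4 exons and 3359 annotated bases of LSM3-201, and a log2 fold change of -0.11 ± 0.11 beside -0.19 ± 0.12 for LSM3 (edgeR, adjusted p = 0.576 and 0.348). PCYOX1, 177 bases from SNRPG, had 2438 counts, 1574 of them on a NIC model of 4 exons and 1102 bases, against 4 exons and 594 bases of SNRPG-201, and a log2 fold change of -0.17 ± 0.10 beside -0.16 ± 0.09 for SNRPG (edgeR, adjusted p = 0.330 and 0.271). Among the copies, SNRPFP2 had 1026 counts, all on unannotated models, the largest of them with 5 exons and 1443 bases, the same as STMN1-206 of the gene that spans it on the other strand. POLR3K, 220 bases from SNRNP25 on the opposite strand, had 674 counts. ZCCHC17 and CIAO1, on the opposite strand near SNRNP40 and SNRNP200, had 69 and 55. The part of opposite-strand reads in any of these counts was not tested.

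**Figure D5:**
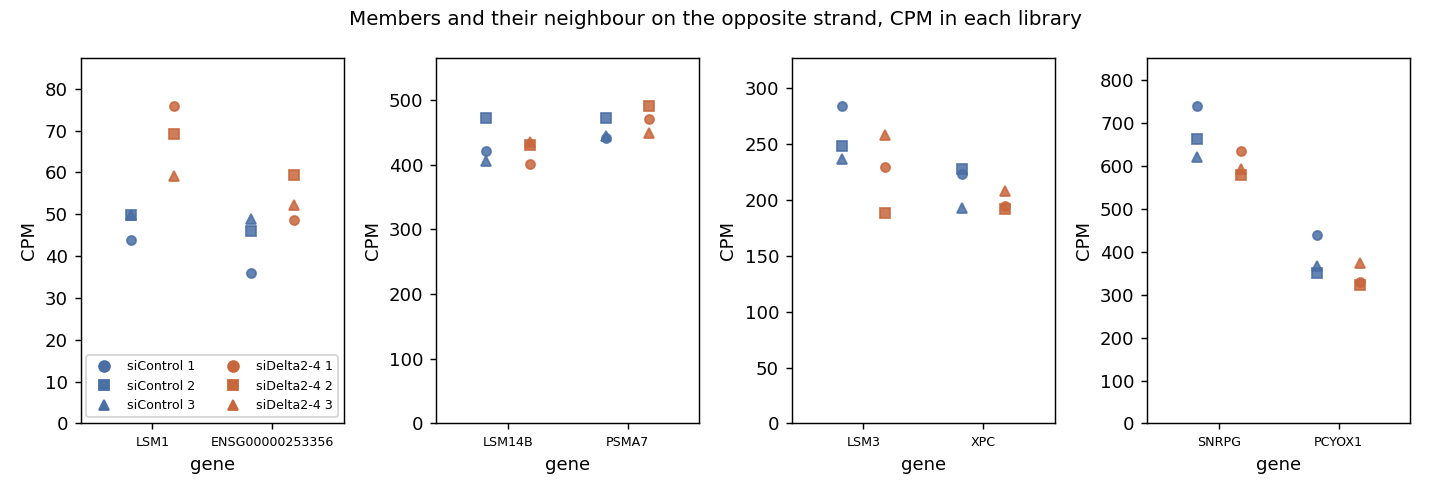
CPM in each library for 4 members and the gene next to or overlapping each on the opposite strand, with siControl in blue, siDelta2-4 in orange, 1 symbol per library and each vertical axis starting at 0. LSM14B and PSMA7 lie at like levels (402 to 472 and 441 to 491 CPM), and ENSG00000253356 lies at 36.1 to 59.3 CPM beside 43.9 to 75.8 for LSM1.

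Other genes of these pathways were looked up from 6 lists of 71 genes, of which 50 were in the table and 21 were tested, with 2 called as higher and 1 as lower. The called share, 14.3% of the tested genes, is close to the 13.0% of all genes tested. Of the snRNP assembly factors, 6 were tested, with 1 called: STRAP, a subunit of the SMN complex that loads Sm proteins onto the RNA, had 57.5, 50.8 and 59.4 CPM in siControl and 66.5, 88.6 and 72.1 in siDelta2-4 (log2 fold change 0.44 ± 0.16, edgeR, adjusted p = 0.0934). The call of STRAP stood in 4 of 14 alternatives, and those that lost it included the fits without siControl 1, siControl 2, siDelta2-4 2 or siDelta2-4 3. Of the SF3A and SF3B proteins, which hold the U2 snRNP on the branch site, 5 were tested and 2 were called in opposite directions. SF3B5 had 106, 83.4 and 69.0 CPM in siControl and 53.4, 43.9 and 47.6 in siDelta2-4 (log2 fold change -0.84 ± 0.17, edgeR, adjusted p = 0.00252), and it was called in all 14 alternatives. PHF5A had 2.9, 7.7 and 6.7 CPM in siControl and 13.1, 23.6 and 14.6 in siDelta2-4 from 80 counts (log2 fold change 1.55 ± 0.38, edgeR, adjusted p = 0.0117), and lost its call without siDelta2-4 2 (edgeR, adjusted p = 0.129). All its siControl values were under the count filter, so PHF5A was tested only through siDelta2-4, where it was higher. It was called in 11 of the 12 alternatives that gave an adjusted p. DESeq2 gave none, and PHF5A fell out of the fit with at least 10 counts in every library.

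The other 4 lists had no called gene. They held 3 tested genes each of the U5 and tri-snRNP, U11/U12 and PRPF19 lists, with log2 fold changes from -0.20 to 0.59, and 1 tested gene of decapping and decay. That gene was DCPS, the scavenger decapping enzyme, at 0.37 ± 0.24 (edgeR, adjusted p = 0.380). Of the partners of the LSM1 ring, EDC4, PATL1, DDX6 and XRN1 had 0 rows in the table and DCP2 had 30 counts, so they could not be set beside LSM1. The median log2 fold change of the 21 tested genes was 0.13, with 7 negative and 14 positive.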

How the data were processed

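The authors deposited unnormalised counts, the number of nanopore PCR-cDNA reads assigned to each transcript model. Per the labels, and per the study's methods, reads were aligned to GRCh38.p14 with minimap2 2.14, sorted with SAMtools 1.13, corrected with TranscriptClean and annotated with TALON against Gencode 44, with unannotated models kept at a minimum of 5 reads. In the table, each unannotated model had at least 5 counts in every siDelta2-4 library, while some had 0 in siControl, so rows were not chosen alike in the groups.

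Counts were summed per gene identifier, and the members were matched to Gencode 44 by identifier and version (30 of 30). The gene test used edgeR 4.0.16 under R 4.3.3 (filterByExpr, TMM, quasi-likelihood fit of the 2 groups, two-sided, Benjamini-Hochberg over all genes, called at an adjusted p under 0.1). Models were tested alike and usage with diffSpliceDGE. Each SE was taken as log2 fold change over the square root of F. On simulated counts with 200 of 3888 genes changed, the gene test recovered 51.5%, 81.5% and 93.5% of changes of 1.5-fold, 2-fold and 3-fold. Of the genes called there, 8.85%, 6.86% and 6.97% were unchanged ones. The simulated spread followed the dispersion trend alone, without an outlying library, so recovery in these data may be lower. Changes under 1.5-fold were not simulated. Replicates differed by more than sampling noise (chi-square per degree of freedom from 1.52 to 3.67). The fits were repeated with the Wald test of DESeq2 1.42.0, with its size factors or library totals in edgeR, no filter, at least 10 counts in every library, known models only, a loess trend on length removed (span 0.4), a block on the column number and each library left out.

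The members and lists were chosen with earlier results of these data known. All members were described, with full values for the called gene and the Sm and LSm ring genes, and called genes of the pathway lists were named. Chosen after values were seen were the analyses without LSM14B, the medians under the alternatives, the full values of SNRNP25 and SNRNP35, the 2000-base window for opposite-strand neighbours and their exon numbers, and the isoform shares.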

Additional observations from a re-analysis of the deposited data

How the results depend on the processing

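The number of genes called, 504, was 279 by the DESeq2 Wald test, 252 on known models only, and from 194 (without siDelta2-4 2) to 1041 (without siControl 3) with a library left out. The 1 called member became 3 with DESeq2 size factors (beside 514 genes in all), 4 on known models only, 5 with the length trend removed (477 genes) and 0 with no filter (416 genes), and from 0 to 7 with a library left out, again 7 without siControl 3. Models called ranged from 173 to 1113, member models from 0 to 5 and genes with changed usage from 1 to 61 in the same way. The members' share of the counts on known models differed by -0.0595 percentage points. That total is smaller than the total of all counts, of which the share differed by -0.0227, so these differences are not on 1 scale. The median over all tested genes was 0.19 with no filter and 0.16 by DESeq2, beside -0.16 and -0.19 over the members. Both of these fits kept the 1887 genes with 0 counts in siControl, all of which have counts in siDelta2-4 and so a positive log2 fold change. The cause of the shifts under the alternatives was not tested.

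With a block on the column number, 299 genes and 0 members were called (LSM1 at 0.50, edgeR, adjusted p = 0.122). Deviations of equal-numbered libraries correlated at 0.04, -0.14 and -0.08, so the numbers were not read as a pairing.

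Of 324 member fold changes under the alternatives, 11 from 6 members changed sign, none of them called. With library totals as the only scaling LSM12, LSM14B, SNRNP27 and SNRPD3 were at 0.0439, 0.0344, 0.0191 and 0.0243. With a library left out, LSM10 ranged from -0.37 to 0.00523, LSM12 from -0.23 to 0.11, LSM14B from -0.10 to 0.0275, SNRNP27 from -0.15 to 0.0135 and SNRNP40 from -0.28 to 0.0238. Members with under 100 counts had wide intervals.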
